A study of Drosophila melanogaster with 4 samples.

Results

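The Turandot and JAK/STAT response genes examined here are the 10 genes TotA, TotC, TotM, TotX, Socs36E, dome, Stat92E, vir-1, Tep1 and Tep2, which were taken by name from the 13926 genes of the count table. Pooled heads of male flies at Day 50 (D50) were profiled by RNA-sequencing. There were 2 libraries from heterozygous mutants (+/+; +/NELF-A*, herein NelfA*/+) and 2 from their control siblings (+/+; +/+). The mutant allele is a P-element insertion in Nelf-A, a subunit of the complex that holds RNA polymerase II paused near the start of genes. It was present in every cell of the fly, both genotypes came from the same backcross to w1118, and neither received a treatment. The comparison asked which genes differ in the heads of old flies when one copy of Nelf-A is mutated. Nelf-A itself matched the labels, with 3598 and 3365 normalized counts for control siblings against 2386 and 2398 for NelfA*/+. This was a log2 fold change of -0.54, and its adjusted p by edgeR's quasi-likelihood test was 0.0411. A normalized count is the number of reads on a gene scaled to the mean library size. Each library held between 42985746 and 45172099 counts on genes.

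In the JAK/STAT pathway of flies, secreted unpaired cytokines bind the receptor Domeless (dome), the kinase Hopscotch is activated, and the transcription factor Stat92E enters the nucleus to switch on its targets. One of these targets, Socs36E, encodes an inhibitor that closes a feedback loop. In the adult fly, the pathway is known for responses to injury, viruses and septic stress, in which the fat body secretes the small Turandot proteins and thioester-containing proteins (Tep), relatives of mammalian complement factors. The Turandot genes also respond to heat and to other stresses, through a MAP kinase route that includes Mekk1.

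None of the 10 genes reached an adjusted p of 0.05 by edgeR's quasi-likelihood test. It called 0 of the 9 that could be tested, where it called 1.87% of all 9609 genes (1.23% lower and 0.645% higher). An unadjusted p below 0.05 was seen for 3 of the 9 (Stat92E, vir-1 and Tep2), where 20.3% of all genes tested had one. DESeq2's Wald test called 2 of them, both lower (vir-1 and Tep2), where it called 8.98% of its genes in either direction and 4.82% lower. The number was 0 in limma-voom, which called 1.23% of genes, and 0 when the replicate number entered edgeR's model as a block, which called 3.09%. The 9 genes had a median log2 fold change of -0.08 beside 0.01 over all genes tested. In 5 of them (Socs36E, Stat92E, vir-1, Tep1 and Tep2) the mutant values were both under the lower control value, an arrangement found in 26.0% of all genes tested. All 9 had enough counts in each genotype to pass the filter on low counts. The tenth gene, TotX, is listed at 0 in every library. Here and below, fewer cells of a type and less RNA per cell cannot be told apart, since whole heads were sequenced.

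The genes lie on several chromosome arms (BDGP6 coordinates, Ensembl annotation). TotA (FBgn0028396; 3R, 20871036 to 20871700) and TotC (FBgn0044812; 3R, 20872988 to 20873580) are neighbours in a cluster of related copies on the forward strand. TotX (FBgn0044810; 3R, 20904917 to 20905518, reverse strand) lies close to this cluster and wholly inside Grik on the other strand. Stat92E (FBgn0016917; 20535323 to 20552311) is on 3R as well. TotM (FBgn0031701; 5329857 to 5330464), Tep2 (FBgn0041182; 7693727 to 7701601), vir-1 (FBgn0043841; 12403270 to 12423439), Tep1 (FBgn0041183; 15888640 to 15893811) and Socs36E (FBgn0041184; 18138675 to 18152417) are on 2L, and dome (FBgn0043903; 19676061 to 19683518) is on X.

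Levels of different genes were compared per length, as normalized counts per kb of exon, in the control siblings. Whether reads in introns were counted is not given, and such reads would raise the value of a gene with long introns. vir-1 has 2118 bp of exon between 12403270 and 12423439, and TotA has 579 bp between 20871036 and 20871700. TotA was the highest of the 10 genes with a mean of 83627 per kb, followed by TotC with 42025 and vir-1 with 31715. TotM, Stat92E and Tep2 formed a middle group with means of 5630, 4812 and 4802 per kb. Socs36E and dome were lower, with 645 and 507, and Tep1 was near the limit of detection with 9.09. TotA had 122216 and 45037 per kb in the control replicates and TotC had 65281 and 18769. TotA was above TotC within each of the 4 libraries, although the control ranges of the genes overlapped. Both control values of vir-1 (32072 and 31358) lay below those of TotA and inside the span of TotC. The middle group could not be ordered beyond the spread between libraries. The control values of TotM (6695 and 4566 per kb) enclosed those of Stat92E (4999 and 4625) and overlapped those of Tep2 (5215 and 4390). Read as shares of all counts on genes, TotA alone took between 0.0604% and 0.157% of a library.

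**Figure D1:**
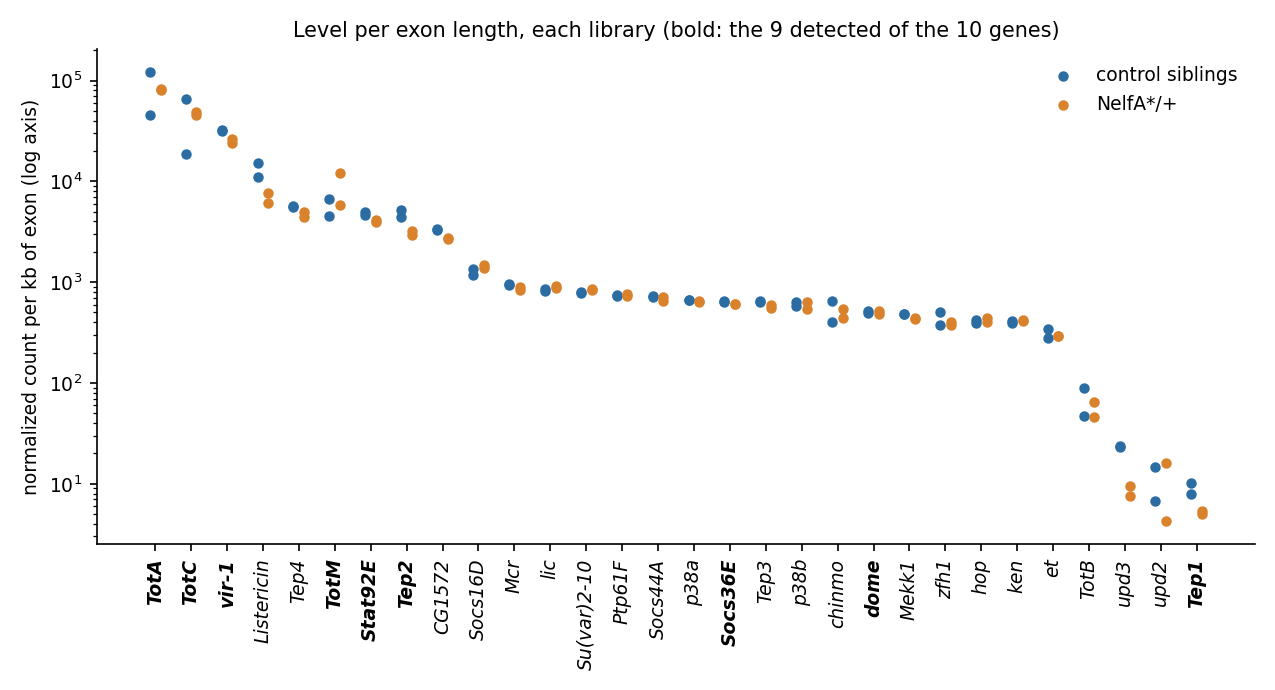
Normalized counts per kb of exon (log axis) of each tested gene of the Turandot, thioester protein, JAK/STAT and stress kinase lists, ordered by the mean of the control siblings. Each point is 1 library, blue for control siblings and orange for NelfA*/+. TotA, TotC and vir-1 are at the left, from 18769 to 122216 per kb in the control siblings, and Tep1 is at the right end, at or below 10.2 per kb in each library.

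TotA and TotC, which encode secreted stress peptides of the fat body, differed far more between the control replicates than between the genotypes. TotA had 70763 and 26077 normalized counts in control siblings and 46317 and 47717 in NelfA*/+ heads. Both NelfA*/+ libraries therefore lay between the control libraries. The control mean was 48420 ± 31598 (SD, n = 2) and that of NelfA*/+ was 47017 ± 989 (SD, n = 2). The log2 fold change was -0.04 with a 95% interval from -1.22 to 1.14 (adjusted p = 0.974 in edgeR's test). TotC showed the same arrangement, with 34599 and 9948 normalized counts in control siblings and 24257 and 26105 in NelfA*/+ heads. Its log2 fold change was 0.18 with an interval from -1.27 to 1.62 (adjusted p = 0.900 in edgeR's test). Intervals of this width leave a change of about the size of the Nelf-A fall, in either direction, not detectable for both genes.

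Control replicate 1 exceeded control replicate 2 by 2.71-fold for TotA and 3.48-fold for TotC. Of all genes tested, 98.3% had a smaller difference between these libraries than TotA, and 98.8% had a smaller one than TotC. The NelfA*/+ replicates differed by a log2 ratio of 0.04 for TotA and 0.11 for TotC, which 21.3% and 47.7% of genes tested fell below. The raw counts of TotA and TotC varied less in their proportion than in their levels. The ratio of TotA to TotC was 2.05 and 2.62 in control heads, against 1.91 and 1.83 in mutant heads. The control value depended on which library was used, and leaving out 1 control library turned the direction. Without control replicate 1 the log2 fold changes were 0.85 for TotA and 1.34 for TotC, and without control replicate 2 they were -0.59 and -0.46, none of which passed 0.05 (adjusted p of at least 0.128 in edgeR's test). The log2 fold change of TotA was also above 0 in limma-voom and with the replicate block (0.13 in both). TotA and TotC are close copies, between which the counting could have split or discarded reads.

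TotM, a Turandot gene outside the 3R cluster, had a different pattern. It had 3696 and 2520 normalized counts in control siblings and 6677 and 3220 in NelfA*/+ heads. NelfA*/+ replicate 1 was the highest library, and NelfA*/+ replicate 2 lay between the controls. Its log2 fold change was 0.67 with an interval from -0.31 to 1.65 (adjusted p = 0.402 in edgeR's test). Without NelfA*/+ replicate 2, edgeR's test called TotM higher, with a log2 fold change of 1.10 and an adjusted p of 0.0173, where it called 3.61% of its genes higher. That fit had 1 mutant library, the one with the highest TotM value, and its spread came from the control pair alone. Without NelfA*/+ replicate 1 the log2 fold change of TotM was 0.05. That library was also the one with the highest level of several gut genes. For instance, alphaTry, a trypsin gene of the midgut, had 6.02 and 11.5 normalized counts in control siblings, 7504 in NelfA*/+ replicate 1 and 534 in replicate 2. Not all gut genes did so. Amy-p had 20916 and 17561 normalized counts in control siblings, 13608 in NelfA*/+ replicate 1 and 15895 in replicate 2. Amy-d had 24179 and 20128 in control siblings against 11446 and 10816 in NelfA*/+ replicates 1 and 2. betaTry was higher in NelfA*/+ replicate 2 (25.1) than in replicate 1 (11.9). The part of gut RNA in the TotM value was not tested.

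The Turandot family has 8 genes, and the other 5 gave little to compare. TotB, next to TotC, had between 24.0 and 47.1 normalized counts per library (log2 fold change -0.31 with 0.748 as the adjusted p of edgeR's test). TotX, TotE (named Victoria in the count table), TotF and TotZ are listed at 0 in every library. A zero does not show that TotX, TotE and TotF were silent, because each lies wholly inside a gene on the opposite strand, Grik for TotX and sick for TotE and TotF. Of 1838 protein-coding genes that lie inside another, 1831 are listed at 0 in all libraries. TotZ overlaps no other annotated gene, and its count of 0 allows up to 3 reads in a library, counting error only. In all, 4 of the 8 Turandot genes were tested and 0 passed in either direction, with a median log2 fold change of 0.07.

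**Figure D2:**
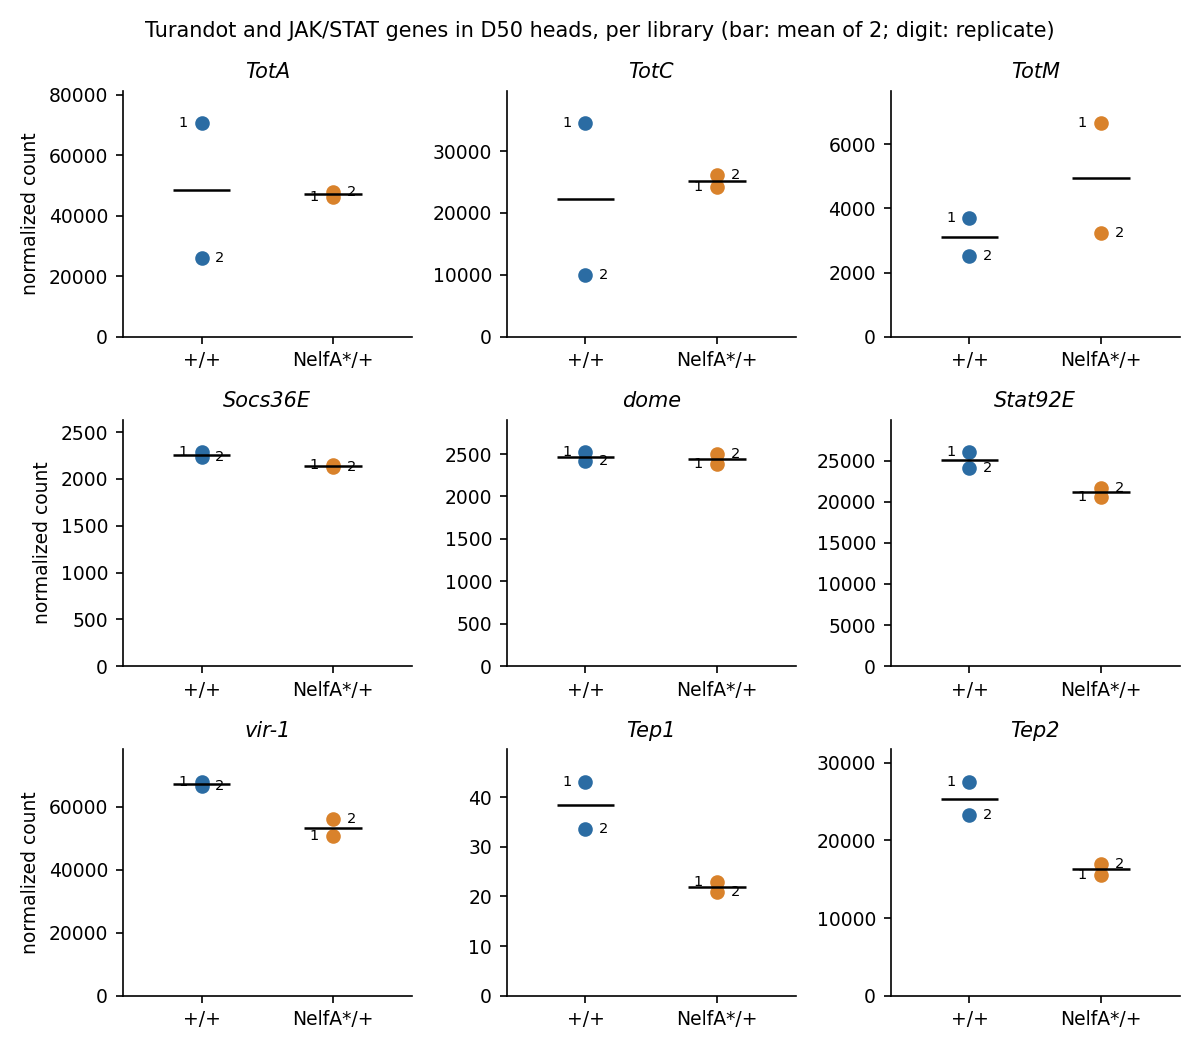
Normalized counts per library of the 9 genes that were detected, with control siblings (+/+) in blue and NelfA*/+ in orange. Each point is 1 library with its replicate number, and the bar is the mean of 2. For TotA and TotC the NelfA*/+ points lie between the control points. For Socs36E, Stat92E, vir-1, Tep1 and Tep2 both NelfA*/+ points lie below both control points, as in 26.0% of all genes tested.

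**Figure D3:**
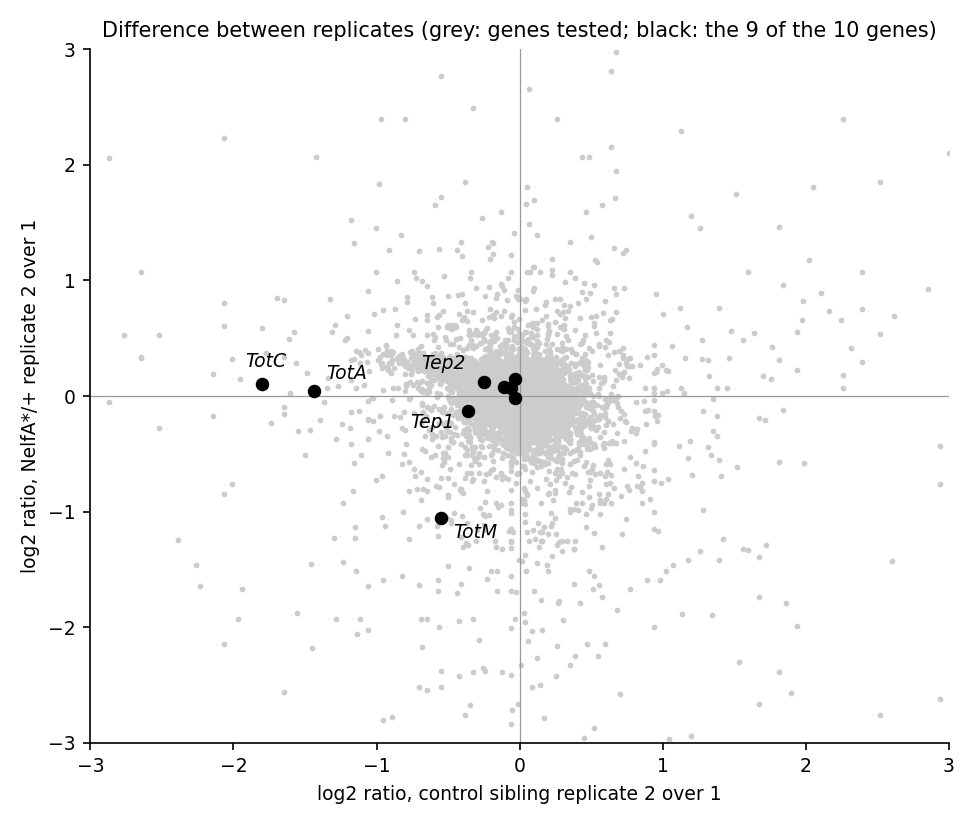
Log2 ratio of replicate 2 over replicate 1 in the control siblings (horizontal axis) and in NelfA*/+ (vertical axis). Grey points are the 9480 of 9609 genes tested with finite ratios within 3 log2 units, and black points are the 9 detected genes. TotA and TotC stand apart on the control axis (-1.44 and -1.80), TotM on the NelfA*/+ axis (-1.05), and the others lie near the centre.

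The signalling components of the pathway were next examined from ligand to transcription factor. The unpaired cytokines were scarce in these heads. upd3, the ligand released by damaged and infected tissue, had 51.1 and 52.8 normalized counts in control siblings and 16.9 and 20.9 in NelfA*/+ heads. The genotypes did not overlap, and the log2 fold change was -1.45 (standard error 0.31), which did not pass in edgeR's test (adjusted p = 0.0947) or in DESeq2's Wald test (0.0507). upd2 had between 8.36 and 31.8 normalized counts per library with large differences within both genotypes (log2 fold change -0.07 with 0.973 as the adjusted p of edgeR's test). upd1 had too few counts to test, with 17, 4, 5 and 6 raw counts in the 4 libraries.

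dome, the receptor gene, was at nearly the same level in all libraries. It had 2523 and 2417 normalized counts in control siblings and 2382 and 2504 in NelfA*/+ heads, and the genotypes overlapped. For dome the log2 fold change was -0.02 with an interval from -0.20 to 0.16 (adjusted p = 0.929 in edgeR's test). For the JAK gene hop it was 0.06 (interval -0.14 to 0.26), and for et, a short receptor that dampens the pathway, it was -0.08 (interval -0.37 to 0.20).

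Stat92E, the transcription factor, had 26045 and 24094 normalized counts in control siblings and 20550 and 21714 in NelfA*/+ heads. Both NelfA*/+ libraries lay below both controls, at 84.3% of the control mean. The log2 fold change was -0.25 (standard error 0.09, interval -0.49 to -0.01), which had an unadjusted p of 0.0453 in edgeR's test across all genes and did not pass after adjustment (adjusted p = 0.236). Among the ligands, receptors and transducers as a list, 6 of 7 genes were tested, 0 passed in either direction, and the median log2 fold change was -0.08.

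Socs36E, whose product inhibits the pathway and whose transcription is a standard readout of Stat92E, had 2286 and 2232 normalized counts in control siblings and 2148 and 2122 in NelfA*/+ heads. Its replicates were the closest of the 9 genes in NelfA*/+ heads. The genotypes did not overlap, but the difference was small, with a log2 fold change of -0.08 and an interval from -0.25 to 0.09 (adjusted p = 0.553 in edgeR's test). The other inhibitors had small differences as well. They were Socs44A (log2 fold change -0.08) and Socs16D (0.17) of the SOCS family, the PIAS gene Su(var)2-10 (0.11), the phosphatase gene Ptp61F (0.01) and ken, a repressor of Stat92E targets (0.05). None of the 6 passed (adjusted p of at least 0.366 in edgeR's test), and the directions were split, with 2 below 0 and 4 above it. Ptp61F changed sign when library size alone was the normalization.

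Of the genes that respond to the pathway, vir-1, a virus-induced gene that depends on Hopscotch, was the most abundant per kb of exon after TotA and TotC. vir-1 had 67928 and 66416 normalized counts in control siblings and 50512 and 55941 in NelfA*/+ heads. The genotypes did not overlap, and the NelfA*/+ mean was 79.2% of the control mean. Its log2 fold change of -0.34 (standard error 0.11, interval -0.63 to -0.05) did not pass in edgeR's test (adjusted p = 0.201) and passed in DESeq2's Wald test (adjusted p = 0.0119). The ratio of vir-1 to Stat92E raw counts was 2.61 and 2.76 in control siblings and 2.46 and 2.58 in NelfA*/+ heads. Both mutant ratios were below both control ratios, but the gap was smaller than the difference between replicates of either genotype. How often other pairs of genes show this arrangement was not examined.

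Listericin, an antibacterial peptide gene, had 6893 and 5010 normalized counts in control siblings and 3436 and 2737 in NelfA*/+ heads. This was a log2 fold change of -0.95 (standard error 0.19), with an adjusted p of 0.0887 in edgeR's test and 0.000133 in DESeq2's. Without NelfA*/+ replicate 1 its log2 fold change was -1.12 (adjusted p = 0.0179 in edgeR's test), where 2.35% of genes were called lower. In that fit 1 mutant library was left, and the spread came from the control pair alone. For CG1572 the log2 fold change was -0.29 (adjusted p = 0.0937 in edgeR's test and 0.0163 in DESeq2's). The transcription factor genes chinmo and zfh1 had log2 fold changes of -0.10 and -0.18 (adjusted p of 0.875 and 0.593 in edgeR's test), and both changed sign without control replicate 1, chinmo also without NelfA*/+ replicate 1. With vir-1, this list had 5 genes tested, 0 called in either direction and a median log2 fold change of -0.29.

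The thioester-containing proteins bind microbes in the haemolymph and mark them for uptake by haemocytes. Tep2 had the interval farthest from 0 of the 9 genes tested. It had 27575 and 23213 normalized counts in control siblings and 15576 and 16960 in NelfA*/+ heads. The NelfA*/+ libraries lay well below both controls, at 64.1% of the control mean. The log2 fold change was -0.64 (standard error 0.12, interval -0.95 to -0.34), with an adjusted p of 0.0751 in edgeR's test and 4.6e-05 in DESeq2's. With library size alone as the normalization Tep2 passed in edgeR's test (log2 fold change -0.66, adjusted p = 0.0461), where 1.85% of genes were called lower. Tep2 overlaps CG43235 on the other strand at one end, a gene with at most 20 raw counts in a library.

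Tep1, a gene known to be switched on by an overactive Hopscotch kinase in larvae, was hardly detected. It had 43.1 and 33.6 normalized counts in control siblings and 22.9 and 20.9 in NelfA*/+ heads. The genotypes did not overlap, but at these counts the log2 fold change of -0.80 had an interval from -1.66 to 0.05 (adjusted p = 0.272 in edgeR's test). The other 3 tested genes of the family had smaller differences in the same direction. Tep4 had a log2 fold change of -0.26, Tep3 one of -0.17 and Mcr, a distant relative that works in cell junctions, one of -0.12. Their adjusted p-values in edgeR's test were 0.231, 0.266 and 0.369. Tep5 had at most 3 raw counts in a library and was not tested. Of the 5 thioester protein genes tested, 0 passed and all 5 had both NelfA*/+ libraries below both controls, beside 26.0% of all genes tested, with a median log2 fold change of -0.26.

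**Figure D4:**
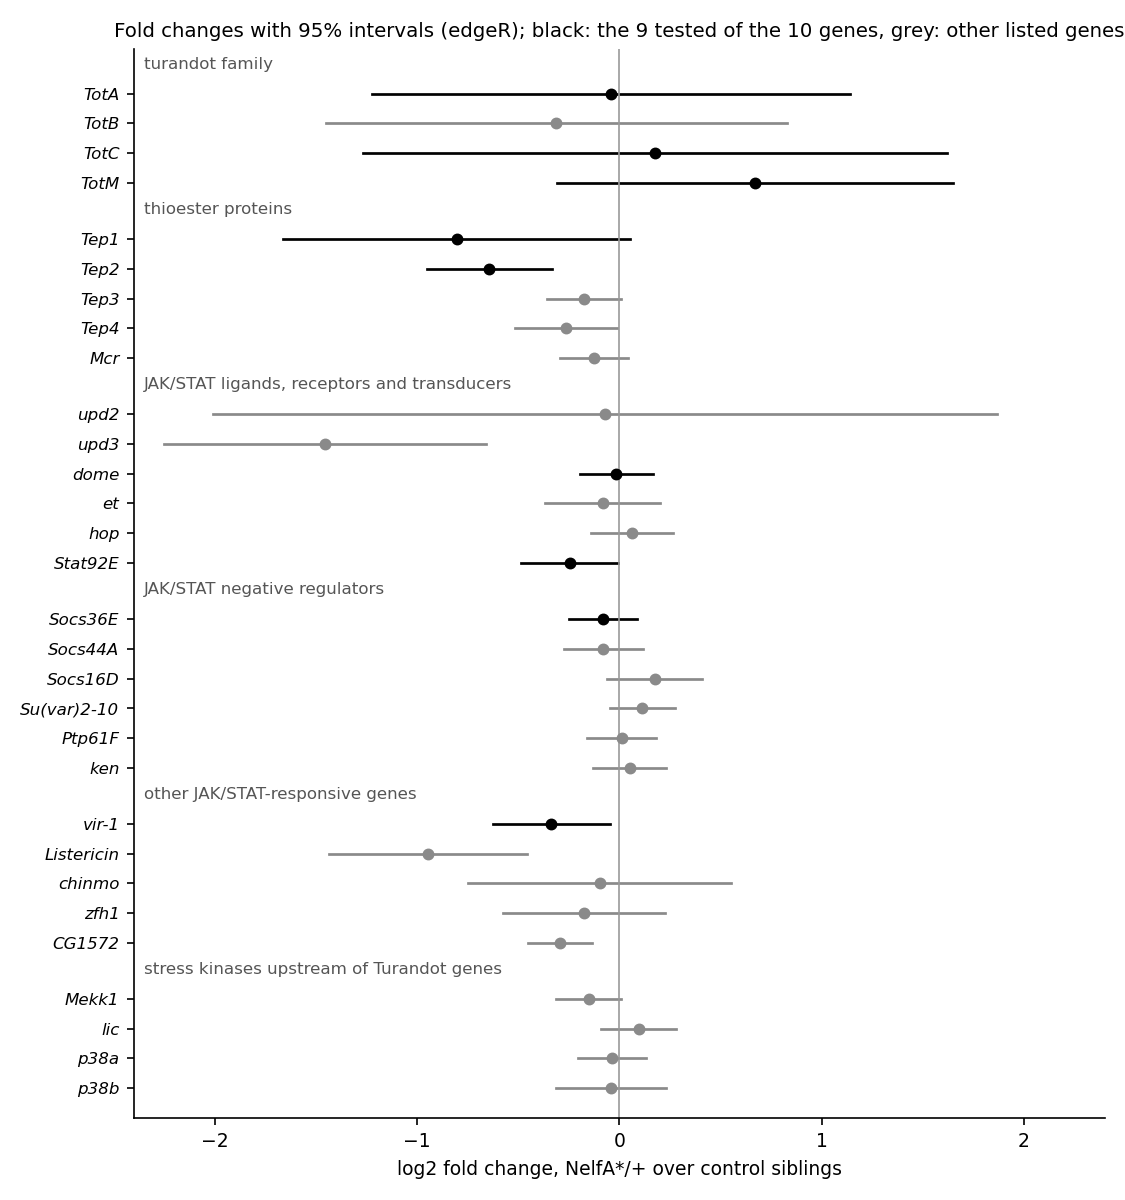
Log2 fold change of NelfA*/+ over control siblings with its 95% interval from edgeR's quasi-likelihood fit, for each tested gene of the 6 lists. The 9 detected genes of the 10 are in black and other listed genes are in grey. The Turandot genes have wide intervals around 0, dome and Socs36E have narrow ones around 0, and the interval of Tep2 ends at -0.34.

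The kinases that carry stress signals to the Turandot genes were also measured. Mekk1 had 2932 and 2937 normalized counts in control siblings and 2613 and 2670 in NelfA*/+ heads (log2 fold change -0.15 with 0.273 as the adjusted p of edgeR's test). The log2 fold changes of lic, p38a and p38b, which act below Mekk1, were 0.10, -0.03 and -0.04, and that of p38b changed sign without control replicate 2 or without NelfA*/+ replicate 2. None of the 4 genes passed in either direction. Over the 6 lists, 21 genes besides the 9 were tested and 0 passed in edgeR's test, beside 1.87% of all genes. An unadjusted p below 0.05 was seen for 4 of the 21, beside 20.3% of all genes. DESeq2 called 2 of them, both lower (Listericin and CG1572), beside the 4.82% of its genes that it called lower.

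Markers of the tissues in which these genes are active were compared beside these values. Of 8 fat body genes, 0 passed in edgeR's test, and values lay on both sides of the controls. Lsp2, Desat1, Mtp and to had lower values in each NelfA*/+ library than in either control, and Lsd-1, FASN1 and Fbp1 had higher ones, beside 26.0% and 26.1% of all genes tested. Fbp1 was hardly detected, with at most 16 raw counts in a library. DESeq2's Wald test called to lower (adjusted p = 0.00407) and Lsd-1 higher (0.00628), beside 489 and 422 of its 10144 genes. The summed normalized counts of the list were 541810 and 518794 in control siblings and 513822 and 478136 in NelfA*/+ heads. Both NelfA*/+ sums were below both control sums, an arrangement seen in 26.0% of single genes tested. Most of each sum came from apolpp, Desat1 and FASN1. Of 11 haemocyte genes, 10 were tested and 0 passed. Their sum was 32790 and 28865 in control siblings and 26575 and 31329 in NelfA*/+ heads, so that the genotypes overlapped. Among them, srp, He and NimC1 lay lower in both NelfA*/+ libraries (log2 fold changes of -0.45, -0.66 and -0.48), beside 26.0% of all genes tested. Pxn lay higher (0.29), beside 26.1%. Hml (-0.03), Col4a1 (-0.02), crq (-0.11), eater (-0.10), lz (-0.01) and PPO2 (-0.23) overlapped the controls, and PPO1 is listed at 0. DESeq2 called 1 of the haemocyte genes, srp, lower (adjusted p = 0.00224), beside 4.82% of its genes. Of 13 gut genes, 11 were tested. NelfA*/+ values did not overlap the controls and were higher for 8 of them, beside 26.1% of all genes tested. edgeR's test called 1 higher (Jon65Aiii) and 1 lower (Amy-d), beside 0.645% and 1.23% of all genes tested. DESeq2 called 8 higher and 1 lower, beside 422 and 489 of its 10144 genes. The summed gut genes came to 45600 and 38185 in control siblings, 63598 in NelfA*/+ replicate 1 and 30886 in replicate 2. The amylase genes Amy-p and Amy-d made up most of the control sums, with 45095 and 37689, and had 25054 and 26711 in NelfA*/+ heads. The other 11 gut genes, a split chosen after the values were seen, summed to 505 and 496 in control siblings and to 38544 and 4176 in NelfA*/+ replicates 1 and 2. The part of these tissues in the lower Tep2, vir-1 and Stat92E values was not tested. Neuron and photoreceptor genes marked the tissue as head, with between 1592370 and 1937810 normalized counts of ninaE and between 69888 and 93696 of nSyb. However, elav, a neuron marker that overlaps another gene, had at most 8 raw counts. Of the 8 genes of this list, 7 were tested and 0 passed in edgeR's test, with a median log2 fold change of 0.14. nSyb, ninaE and norpA were higher in both NelfA*/+ libraries than in either control, beside 26.1% of all genes tested. ninaC was lower in both, beside 26.0%, and Syt1, brp and trp overlapped. DESeq2's Wald test called nSyb higher (adjusted p = 0.0491), beside 422 of its 10144 genes.

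Some of the genes lie near the mutated locus. Nelf-A is on 3R from 21223704 to 21229512. TotX, TotC and TotA lie 318.2, 350.1 and 352.0 kb from it and Stat92E 671.4 kb. An effect of the mutated allele and one of sequence linked to it cannot be told apart for these genes. Within 1 Mb of Nelf-A 161 genes were tested, of which 4 passed, 2 lower and 2 higher, or 2.48% beside 1.87% of all genes. Their median log2 fold change was 0.01. The 2 higher ones, CG3822 and Ktl, lie close to the Turandot cluster. They had log2 fold changes of 0.64 and 0.52 (adjusted p of 0.0360 and 0.0451 in edgeR's test). The 2 lower ones, CG31205 and CG5849, lie 491 and 511 kb from Nelf-A. Their log2 fold changes were -0.89 and -0.74 (adjusted p of 0.0362 and 0.0326 in edgeR's test). All 4 were named after their values were seen. Of the genes with both NelfA*/+ values below both controls, Stat92E lies on 3R, and Socs36E, vir-1, Tep1 and Tep2 lie on 2L. The part of linkage in these values was not tested.

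**Figure D5:**
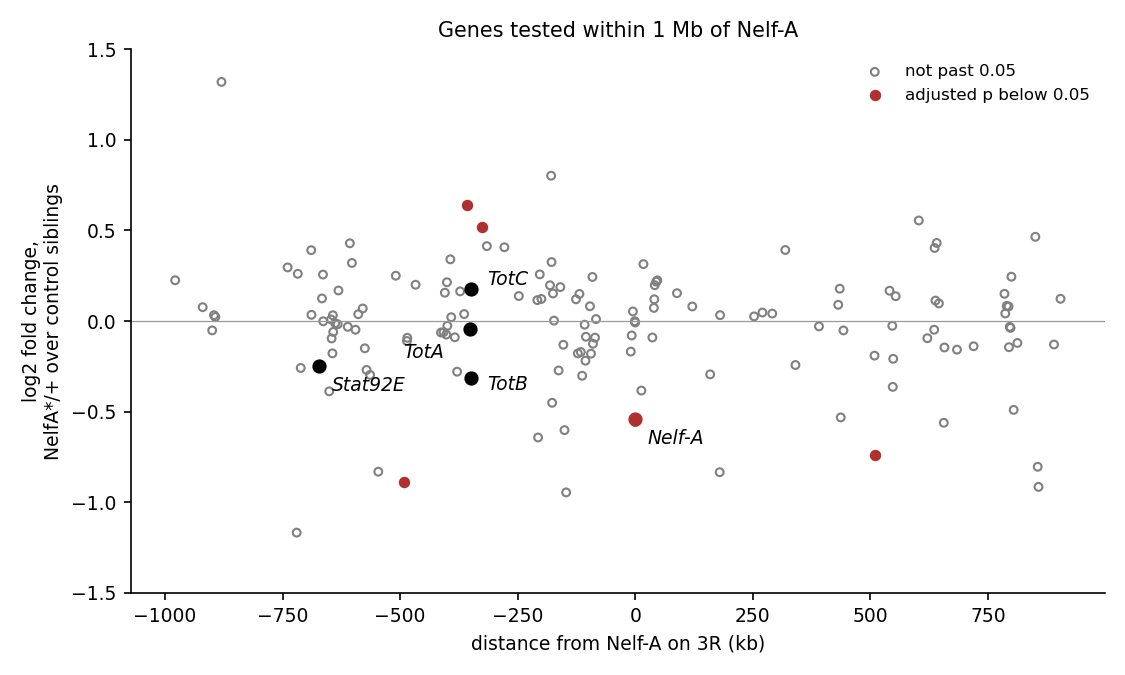
Log2 fold change of genes tested within 1 Mb of Nelf-A, against the distance from Nelf-A on 3R in kb. Filled red points passed an adjusted p of 0.05, open points did not, and filled black points are Stat92E, TotA, TotC and TotB, which did not pass. The axis ends at 1.5 on the log2 scale in either direction, and 10 of the 162 genes lie beyond it.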

How the data were processed

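Heads of D50 male flies were sequenced in 4 libraries, 2 per genotype. Per the methods and labels, the authors used Trim Galore for trimming, STAR 2.5 for alignment to the BDGP6 genome, and HTSeq-count for the number of reads on each gene. They deposited raw counts, whole numbers without normalization. The mode, feature type and strand setting of the counting are not given in the sources used here. A table of the authors' own DESeq2 comparison was not used. HTSeq-count's summary lines were left out of library sizes, and reads on more than 1 gene made up between 8.02% and 8.53% of the reads that were counted, ambiguous or outside genes.

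Genotype and replicate came from the sample titles. In R 4.3.3, genes with enough counts (edgeR 4.0.16, filterByExpr) were normalized by TMM and compared by the quasi-likelihood functions glmQLFit and glmQLFTest. The p-values of 9609 genes were adjusted together by Benjamini-Hochberg, and 0.05 was the threshold. A standard error is the log2 fold change over the square root of the F statistic, and 95% intervals used the same test's degrees of freedom. Exon lengths and positions came from the Ensembl annotation of BDGP6, a later release than the authors' on the same assembly. Of the 13926 names, 13878 were matched. DESeq2 1.42.0, DESeq2's size factors, library size alone, no filter, limma-voom (limma 3.58.1), the replicate number as a block and leaving out each library were tried. The steps were tested on simulated counts.

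The 10 genes and the gene lists were chosen with earlier results of these data known. All genes of the Turandot, thioester protein, JAK/STAT and stress kinase lists are named, and markers are given by counts, ranges and a few examples chosen after their values were seen. Replicates of a genotype differed by more than counting noise (a chi-square of 62.7 per degree of freedom for control siblings and 50.8 for NelfA*/+) and were kept apart. The study calls the libraries biological replicates, but the labels do not say that they came from separate pools of flies, so p-values measure the spread between these libraries.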

Additional observations from a re-analysis of the deposited data

How the results depend on the processing

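With 2 libraries per genotype the number of calls depended on the test. Over all genes, edgeR called 180 (62 higher, 118 lower). DESeq2's Wald test called 911 (422 higher, 489 lower), limma-voom 118 (34 higher), library size alone 257 (178 lower) and no filter on low counts 82 (34 higher, 48 lower). Without 1 library the number lay between 2 and 554, with 2 to 356 higher and 0 to 230 lower. It was 2 without control replicate 1 and 2 without control replicate 2, but 412 and 554 without NelfA*/+ replicate 1 and 2. Of the 9 genes, edgeR called 0 lower, DESeq2 2 and library size alone 1, and 0 to 1 were called higher without 1 library. Of the other listed genes, edgeR called 0 lower and DESeq2 2, and the number was 0 to 1 without 1 library. The replicate numbers share no handling in the labels, and deviations of same-numbered libraries correlated with r = -0.145 over 8398 genes with a mean count above 100. With the replicate block edgeR called 297 genes (155 higher), 0 of the 9 and 1 other listed gene lower (Listericin), and Nelf-A did not pass (adjusted p = 0.0537). A block on crossed numbers, chosen after seeing the data, called 797 genes (345 higher, 452 lower), 1 of the 9 and 2 other listed genes.

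Nelf-A also did not pass without the filter (adjusted p = 0.0584) or without either control library (0.259 and 0.145). The direction of TotA was reversed in limma-voom (log2 fold change 0.13) and with the block (0.13), and that of Ptp61F with library size alone (-0.013). Without 1 library, log2 fold changes that changed sign ranged from -0.59 to 0.85 for TotA, -0.46 to 1.34 for TotC, -0.053 to 0.020 for dome, -0.70 to 0.21 for TotB, -1.33 to 0.58 for upd2, -0.22 to 0.061 for et, -0.033 to 0.054 for Ptp61F, -0.41 to 0.30 for chinmo, -0.38 to 0.056 for zfh1 and -0.17 to 0.073 for p38b. Tep2 lay between -0.76 and -0.52, vir-1 between -0.41 and -0.26 and Stat92E between -0.30 and -0.19 in these fits. The cause of these differences was not tested.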

Other observations

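Grik and sick, the genes whose spans contain TotX, TotE and TotF, were counted although the Turandot genes inside them were not. Grik, an ionotropic glutamate receptor gene, had 634 and 628 normalized counts in control siblings and 793 and 888 in those of NelfA*/+. The log2 fold change was 0.41 (adjusted p = 0.0915 in edgeR's test and 0.0451 in DESeq2's). For sick the log2 fold change was 0.08 (adjusted p = 0.653 in edgeR's test).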
